A study of Mus musculus with 18 samples.

Results

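The genes for the proteins of the cytosolic ribosome were followed through the whole series. They were taken by name, as symbols of the Rpl and Rps pattern with at least 1 protein-coding transcript in all 3 deposited tables, with the transcripts of a gene added together. This gave 78 genes of the 25980 that all 3 tables list: 44 of the large subunit, 31 of the small subunit and the 3 of the stalk, spread over 19 chromosomes. Rpl3l had coding transcripts but was listed in 2 tables, and Rpl32l, Rpl6l and Rps4l had no coding transcript, so these were left out.

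The series holds 18 mouse RNA-seq libraries, 3 for each of 6 groups. Unedited (wild-type) cells and cells carrying a guide against NAT10, the RNA cytidine acetyltransferase (labelled sgNAT10), were compared in MCA205, a chemically induced fibrosarcoma line, and in TC1, both in culture. The third comparison was between tumours that grew under the skin of mice given wild-type or sgNAT10 TC1 cells (2000000 in 100 µl of PBS) and were taken on day 8. Tumours hold host cells beside the implanted ones, no label gives the mouse strain, and no sample title names separate sgNAT10 clones. TC1 is called a fibrosarcoma line in the labels, although it is usually known as a line made from lung epithelium with papillomavirus oncogenes.

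Each ribosome carries a single copy of nearly every ribosomal protein, and more of the acidic stalk proteins, built onto ribosomal RNA in the nucleolus and cytoplasm. Their messenger RNAs are among the most abundant of a dividing cell. Most of them start with a C followed by a run of pyrimidines, the terminal oligopyrimidine or TOP element, which puts their translation under the control of mTORC1 and the RNA-binding protein Larp1. Proteins made in excess of their partners are degraded, and several unassembled ones, Rpl5 and Rpl11 among them, bind Mdm2 and so stabilise p53.

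Library totals ran from 51661298 to 78501790 counts, of which the 78 genes took between 2209769 and 6072439, so counting error on the abundant members is small beside the spread between libraries. The targeted gene did not separate the genotypes at the level of RNA: Nat10 lay between 12.5 and 14.2 FPKM (fragments scaled by transcript length and library depth) in the 6 MCA205 libraries, between 11.7 and 15.9 in TC1 cells and between 12.3 and 16.3 in tumours. Its adjusted p-values were 0.885, 0.161 and 0.336. A small insertion or deletion need not lower a transcript, so the RNA does not check the labels, and the libraries are called sgNAT10 as labelled. Of 7 epithelial and lung markers 5 reached 1 FPKM in each TC1 cell library, and their sum ran from 35.0 to 166 FPKM, beside 1037 to 1693 FPKM for 7 mesenchymal markers. In MCA205 libraries 0 to 5 of the epithelial and lung markers reached 1 FPKM, with sums of 0.65 to 102 FPKM. The sums overlapped between the lines and do not identify TC1. Separate cultures or animals are not named for the 3 libraries of any group, so each p-value is set by how much libraries differ, which may be technical.

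Levels were compared between genes as FPKM, which divides by transcript length. In wild-type MCA205 cells the highest member was Rps2, which lines the path by which messenger RNA enters the small subunit, at 2259 ± 70.7 FPKM (SD, n = 3). The stalk base Rplp0 followed at 1852 ± 65.5, and Rpl8, a protein close to the peptidyl transferase centre, at 1816 ± 39.2. Rplp0 and Rpl8 overlapped, and Rps2 lay above both. In wild-type TC1 cells Rplp0 led at 2091 ± 45.0, above Rps2 at 1973 ± 43.6, and in wild-type tumours Rps2 led at 2180.4 ± 473, overlapping Rplp0 at 1901 ± 299. The median member stood at 513 FPKM in wild-type MCA205 cells, 527 in TC1 cells and 620.5 in tumours.

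Rpl21 stood at 62.8 ± 4.74 FPKM in wild-type MCA205 cells, Rps15a at 71.0 ± 3.12, Rps27l at 80.5 ± 3.06 and Rps20 at 86.2 ± 6.01. The last pair overlapped between libraries and the others did not. In counts Rps15a had 20882, 22430 and 20318 and Rps20 had 17803, 20811 and 18356, beside 2540, 2753 and 2460 for Rps27l. The low FPKM of Rps15a and Rps20 therefore depends on the lengths of the transcripts that their reads were assigned to. Rpl39l, the testis paralog of Rpl39, was at or near 0 throughout: its highest library, a wild-type tumour, had 1.51 FPKM. Levels in wild-type MCA205 and TC1 cells lay within 2-fold of each other for 76 of 77 genes, with a Spearman rho of 0.95 that describes these 2 groups of libraries. The exception was Rps21, described further on. Rps9 stood apart in the tumours, at 1249 ± 347 FPKM against 464 ± 20.7 in TC1 cells and 597 ± 33.3 in MCA205 cells, although the 3 tables were deposited separately and levels across them carry that limit.

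**Figure D1:**
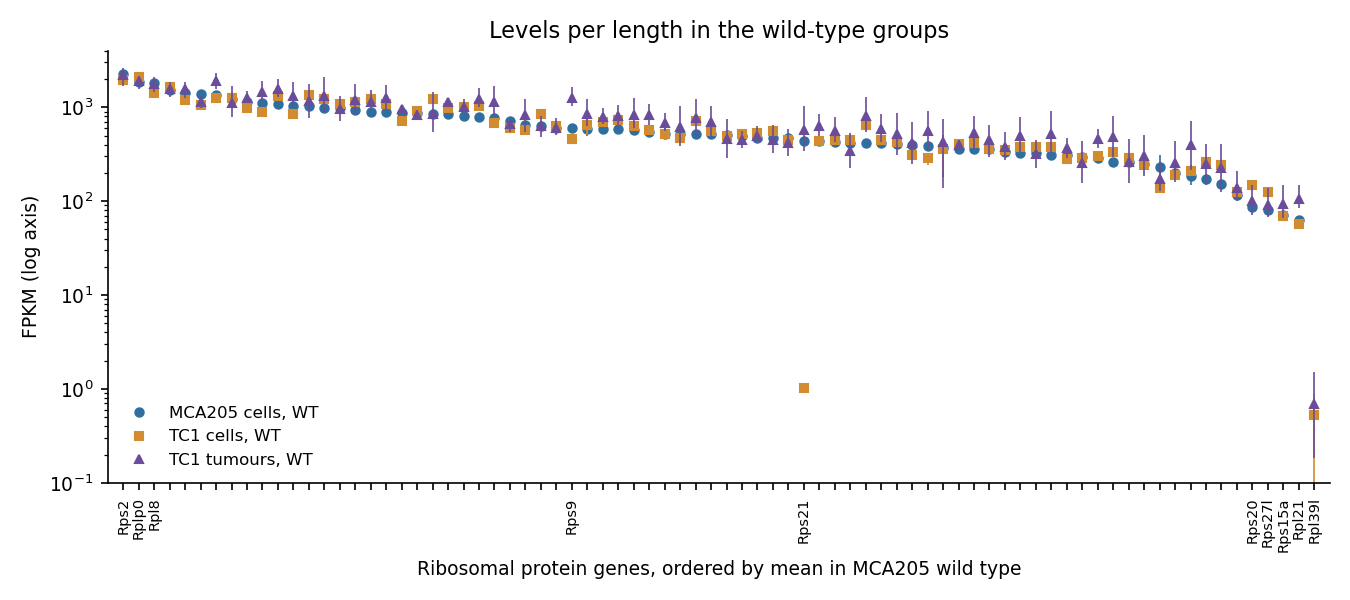
Mean FPKM of each ribosomal protein gene in the 3 wild-type groups on a log axis, with vertical lines from the lowest to the highest of 3 libraries, ordered by MCA205 cells, with the genes described in the text labelled. Rps2, at 2259 FPKM, opens the order, Rps21 drops to about 1 FPKM in TC1 cells alone, and Rpl39l ends it, its value of 0 in MCA205 cells being below the axis.

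RefSeq promoter windows (GRCm38.p6) matched 58 of the 78 genes. In the windows of 13 genes, 22.4%, the annotated start itself was a C followed by at least 4 pyrimidines, against 3.01% of all 27025 genes with a window. Within 10 bases of the start on the same strand such a run was found for 62.1%, against 34.4% of all genes. CCGGAAG, on either strand of the 300-base window, was found for 43.1% against 9.93%. CACGTG was found for 10.3% against 8.09%, AAGATGGC for 8.62% against 3.19%, and TATAAA, on the sense strand between 40 and 15 bases before the start, for 0 of the 58 against 2.41%. A run of letters is a description of the window and does not show that it acts as an element.

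The starts of 7 members that the results below turn on are given so that their pyrimidine runs can be set beside their changes. Each line is 30 bases, 12 before the annotated start and 18 from it, 5′ to 3′ on the strand of the gene, with each C within 10 bases of the start that at least 4 pyrimidines follow, and that run, in capitals. The positions are on GRCm38.p6: Rpl15 at chr14:18270969-18270998 on the minus strand, Rps6 at chr4:86857350-86857379 on the minus strand, Rps2 at chr17:24720051-24720080 on the plus strand, Rpl13 at chr8:123102338-123102367 on the plus strand, Rpl39 at chrX:37085205-37085234 on the minus strand, Rpl24 at chr16:55966263-55966292 on the plus strand and the first of the windows of Rps27l at chr9:66946074-66946103 on the plus strand.
Rpl15: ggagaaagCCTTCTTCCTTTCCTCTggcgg
Rps6: cggaagtcgggCCTCTTTTTCgtgacgcct
Rps2: cagtcgagatctcgcgCTTCTTggagcact
Rpl13: cctttcgcctgattttgattggcgtttgag
Rpl39: aagctccgCCTCTagcgaCTTCTTCTaatc
Rpl24: aagctgttgctaggaaacagactgggcgct
Rps27l: ctCCTCCCCgccgCCTCTatcccggaagtt
Rpl15 and Rps6 show a run that spans the annotated start and Rps2 one a few bases inside it. Rpl39 shows a short run that ends on the start base and a longer one inside, and Rps27l a run before the start and a shorter one just inside. Rpl24 shows none, and Rpl13 none in capitals, since its only run lies further upstream, at the left end of its line. Of the members with a run at the start, 6 of 13 were lower in sgNAT10 MCA205 cells at an adjusted p under 0.05, with a median log2 change of -0.18, and of those without it 22 of 44, with a median of -0.20, where 21.2% of all genes were lower. In TC1 cells the counts were 7 of 13, median -0.33, and 23 of 44, median -0.30, where 22% of all genes were lower.

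Ribosomal protein transcripts took a smaller part of the sgNAT10 libraries of both lines. In MCA205 cells the 78 genes held 4.75%, 4.88% and 5.10% of the counts of wild-type libraries and 4.49%, 4.31% and 4.12% of those of sgNAT10 libraries. The groups did not overlap, and the mean went from 4.91% ± 0.173 to 4.31% ± 0.181 (SD, n = 3), a change of -12.3%. In TC1 cells the shares were 5.16%, 5.09% and 5.18% against 4.64%, 3.92% and 3.90%. Again the groups did not overlap, with means of 5.14% ± 0.0496 and 4.15% ± 0.421 and a change of -19.3%. A two-sided exact permutation test gave p = 0.1 in each line, the smallest that 3 against 3 allows.

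In the tumours the same share was 7.74%, 5.01% and 4.32% for wild type and 4.12%, 4.09% and 4.59% for sgNAT10. The groups overlapped (exact permutation p = 0.2), and wild-type tumour 1 stood far above the rest. It was the highest of its group for 78 of 78 members, with a median ratio of 2.17 to the mean of the other two libraries. The change of the mean was -24.9% with that library and -8.47% without it. In bulk RNA, fewer cells of a kind and less of this RNA per cell cannot be told apart.

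**Figure D2:**
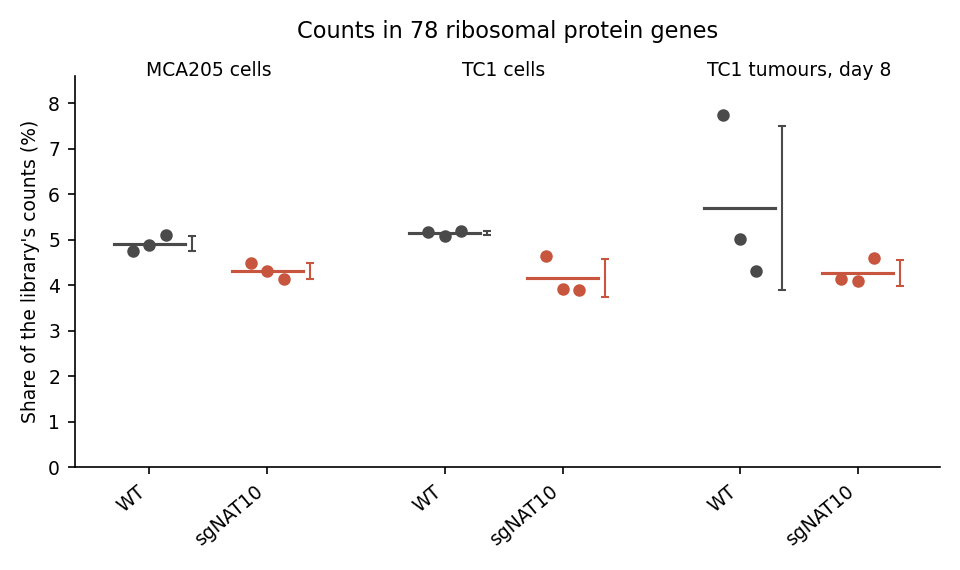
Percent of each library's counts that fell in the 78 ribosomal protein genes, with 1 point a library, a line at the mean and a bar of 1 SD (n = 3) beside it. The sgNAT10 points lie below the wild-type points in both cell lines, and wild-type tumour 1, at 7.74%, lies far above the other tumours.

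In MCA205 cells 40 of the 77 members tested were lower in the sgNAT10 libraries and 1 was higher, at an adjusted p under 0.05 in edgeR's quasi-likelihood test. Over all genes 21.2% were called lower and 20.9% higher, 42.1% in all. The median member changed by -0.21 on the log2 scale, beside -0.04 for all genes, and 72 of the 77 were below 0. Counts relative to library size, scaled by edgeR's TMM factors (scaled CPM), did not overlap between the groups for 42 members that were lower and 1 that was higher, against 28.1% and 27.1% of all genes. Among the parts of the ribosome, 25 of 43 large-subunit genes, 14 of 31 small-subunit genes and 1 of 3 stalk genes were lower. A single fit of all 18 libraries, which takes the tumours' spread into its error, called 3, against 22.5% of all genes. Without wild-type library 3 the 41 calls became 23, of which 22 were lower, where 2840 of all 18886 genes were lower and 3359 higher. None of the 41 changed sign when any 1 library was left out.

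The largest fall among the called members was that of Rpl7 (ENSMUSG00000043716, chromosome 1, 16101295 to 16104662 in mm10), a large-subunit protein. It stood at 1338, 1256 and 1308 scaled CPM in wild type and at 837, 858 and 831 in sgNAT10. All sgNAT10 libraries were lower than all wild-type ones, and the change was -0.63 ± 0.04 (SE), adjusted p = 2.59e-05. Rpl34, Rpl15, Rpl36, Rps14 and Rpl32 followed, with changes of -0.56, -0.53, -0.53, -0.47 and -0.45. Rps14, the small-subunit protein whose gene is lost in the human 5q- syndrome, went from 692, 699 and 726 to 521, 511 and 498, adjusted p = 5.95e-05. Rpl15, whose start carries the longest of the pyrimidine runs above, went from 581, 607 and 625 to 439, 416 and 401, adjusted p = 0.000137. These 2 were without overlap as well.

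The proteins that carry 5S ribosomal RNA into the large subunit, and that bind Mdm2 when unassembled, both fell in MCA205 cells. Rpl5 had 1532, 1529.6 and 1613 scaled CPM in wild type and 1200.2, 1199 and 1160.1 in sgNAT10, a change of -0.39 ± 0.04 with adjusted p = 0.000204. Rpl11 had 534, 513 and 553 against 429.7, 419 and 398, a change of -0.36 ± 0.04 with adjusted p = 0.000577. The stalk, which recruits the elongation factors, moved less: Rplp0 changed by 0.02 and Rplp1 by 0.04, neither called, and Rplp2 by -0.19 with adjusted p = 0.0437. Rps6, the substrate of the S6 kinases, fell by 0.15 (adjusted p = 0.0249), and Rpsa, known also as a laminin receptor, fell by 0.11 (adjusted p = 0.0398), the smallest called change. The calls of Rplp2 and Rps6 were lost without any of several single libraries, and that of Rpsa without any one of the 6. Rps27a, which is made fused to ubiquitin, fell by 0.27 (adjusted p = 0.00194).

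Rpl39, a small protein at the exit tunnel, was the 1 member that rose in MCA205 cells. Its scaled CPM values were 69.4, 81.7 and 86.4 in wild type and 155, 133 and 103 in sgNAT10. The groups did not overlap, though the sgNAT10 libraries spread widely, and the change was 0.72 ± 0.15, adjusted p = 0.00856.

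Markers of other cell types varied between the MCA205 libraries. Of 7 mesenchymal markers 4 were lower and 1 higher, although their sum was higher in sgNAT10, at 649.9 to 662 FPKM against 628 to 636. Of 6 endothelial markers 2 were higher, with sums of 12.1 to 13.0 against 4.12 to 8.13, and of 10 immune markers 1 was higher, with sums of 16.4 to 28.7 against 6.07 to 22.8. Wild-type library 2 stood apart, with 81.6 FPKM of skeletal muscle markers and 41.0 of keratinocyte markers, where the other 5 libraries had 1.01 to 3.05 and 0.466 to 1.22. Liver and intestine markers summed to 5.65, 406 and 177 in wild type and 145, 2.04 and 167 in sgNAT10. Without wild-type 2 the calls among ribosomal protein genes were 31 lower and 1 higher, where 3340 of all 18544 genes were lower and 3622 higher. With wild-type 1 and sgNAT10 2 left out together 33 members were called, 32 of them lower. Of all 18415 genes 2932 were then lower and 3470 higher. The part of these markers in the result was not tested.

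In TC1 cells 42 of 77 members were lower in the sgNAT10 libraries and 3 were higher, while 22% of all genes were called lower and 15.9% higher, 37.9% in all. The median member changed by -0.31, beside -0.08 for all genes, and 71 were below 0. Scaled CPM did not overlap for 51 members that were lower and 5 that were higher, against 29.7% and 22% of all genes. Of the large subunit 23 of 43 were lower and 2 higher, of the small subunit 18 of 31 were lower and 1 higher, and of the stalk 1 of 3 was lower. Scaling factors taken without the ribosomal protein genes moved the median of all genes from -0.08 to 0.02 and that of the members from -0.31 to -0.21. With them 28 members were lower and 4 higher, where 3315 of all 18823 genes were lower and 3800 higher. RLE size factors, another scaling, gave medians of -0.01 and -0.24, with 30 lower and 4 higher. Of all genes 3417 were then lower and 3389 higher.

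Leaving out 1 library changed the count more here than in MCA205 cells. It also moved the median of all genes, from -0.08 to values between -0.02 and 0.05. The weight of a library and this shift of scale cannot be told apart in the counts of calls. The 45 calls became 23 without sgNAT10 2 and 23 without sgNAT10 3, with 19 lower each time. In these fits 2516 of 19492 and 2623 of 19476 genes were lower. The calls became 28, 29 and 29 without wild-type 1, 2 and 3, with 24, 26 and 26 lower. Here 2651 of 19603, 2888 of 19674 and 3093 of 19809 genes were lower, so the calls over all genes fell too. With all 18 libraries in a single fit the member calls became 13, against 31.9% of all genes. Without sgNAT10 1, whose levels were the highest of its group for 75 members, they became 62. Of these 58 were lower, where 3801 of 19866 genes were lower. No called member changed sign in any of these fits. Mesenchymal markers moved with the genotype, 6 of 7 being lower, with sums of 1383 to 1693 FPKM in wild type and 1037 to 1127 in sgNAT10. Liver and intestine markers were present in all TC1 cell libraries, 714 to 1478 FPKM in wild type and 919 to 1350 in sgNAT10, with 0 of 11 called. Of 10 immune markers 3 were higher and 1 lower, with sums of 71.2 to 132 FPKM in sgNAT10 against 38.6 to 49.5, and of 6 endothelial markers 1 was higher, with sums of 16.7 to 18.2 against 11.2 to 13.9, neither overlapping. The part of any of these in the result was not tested.

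Rpl13 (ENSMUSG00000000740, chromosome 8, 123102350 to 123105244), a large-subunit protein, fell most in TC1 cells, from 1471, 1521 and 1584 scaled CPM to 919, 763 and 766. The change was -0.90 ± 0.09, adjusted p = 0.000484, with no overlap. Rps2 (ENSMUSG00000044533, chromosome 17, 24718116 to 24721929), the most abundant member in MCA205 cells, fell by as much, from 2341, 2349 and 2446 to 1596, 1146 and 1086. Its sgNAT10 libraries were unequal, the first being well above the other two, and all were below wild type (-0.90 ± 0.15, adjusted p = 0.0036). Rps18, Rpl21, Rpl26 and Rpl7 followed, with changes of -0.74, -0.73, -0.73 and -0.71. With any 1 library left out the falls of Rpl21, Rpl26 and Rpl7 were all smaller. They ran from -0.69 to -0.61, -0.70 to -0.58 and -0.66 to -0.57. The ranges were -0.75 to -0.57 for Rps18, -0.90 to -0.75 for Rpl13 and -0.99 to -0.68 for Rps2. Rpl7, first of the called members in MCA205 cells, had 1083, 1159 and 1180.5 in wild type and 748, 668 and 681 in sgNAT10 (adjusted p = 0.000499).

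Rps6 fell in TC1 cells by 0.68 (adjusted p = 0.00204), from 1306, 1315 and 1373 scaled CPM to 954, 767 and 773. Rps27a fell by 0.62 (adjusted p = 0.00295) and Rplp1 of the stalk by 0.41 (adjusted p = 0.0248), while Rplp0 and Rplp2 changed by -0.18 and -0.25 without a call. The pair that binds 5S ribosomal RNA parted. Rpl11 fell by 0.33 (adjusted p = 0.0427), a call lost without any of 5 single libraries. Rpl5 had 1398, 1369 and 1431 in wild type and 1525, 1305 and 1337 in sgNAT10, which overlapped, with a change of -0.01 (adjusted p = 0.939) that lay between 0.01 and 0.14 when any 1 library was left out.

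The 3 members that rose in TC1 cells were Rps27l, Rpl24 and Rpl39, and each kept its call when any 1 library was left out. Rps27l (ENSMUSG00000036781, chromosome 9, 66946086 to 66949516) is a paralog of Rps27 and a known target of p53. It went from 67.4, 73.7 and 77.7 scaled CPM to 147, 122 and 124, a change of 0.85 ± 0.10 with adjusted p = 0.000717. Rpl24 (ENSMUSG00000098274, chromosome 16, 55966275 to 55971435), which forms a bridge between the subunits, went from 329, 331 and 351 to 581, 487 and 506, a change of 0.64 ± 0.08 with adjusted p = 0.00115. Rpl39 (ENSMUSG00000079641, chromosome X, 37082520 to 37085402) went from 92.0, 84.3 and 88.5 to 144, 119 and 124, a change of 0.55 ± 0.09 with adjusted p = 0.00274. In all 3 the lowest sgNAT10 library lay above the highest wild-type one.

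**Figure D3:**
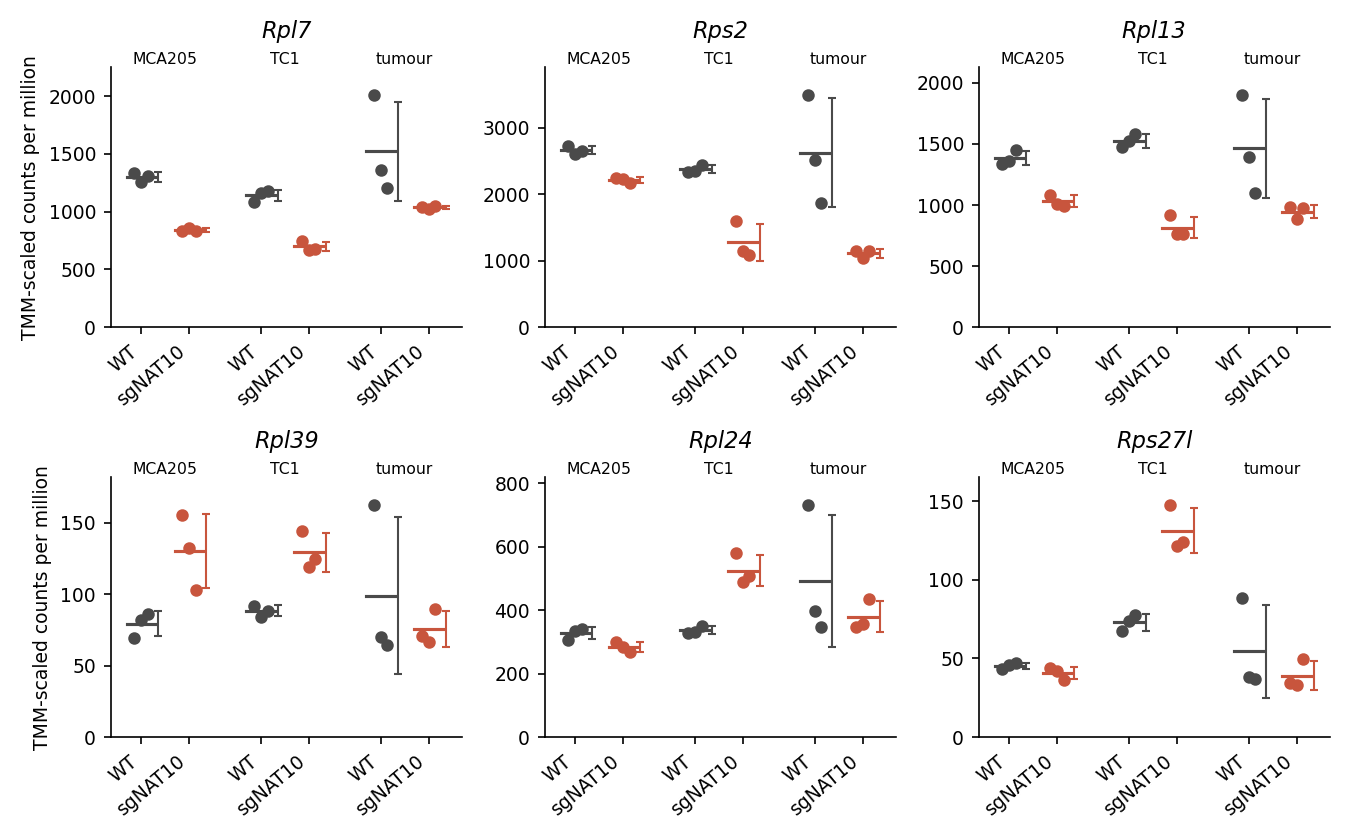
TMM-scaled CPM of 6 members in every library, with lines at group means and bars of 1 SD (n = 3). Axes start at 0 and differ between panels, and each table has its own scaling. Rpl7, Rps2 and Rpl13 are lower in the sgNAT10 libraries of both lines, Rpl39 is higher in both, and Rpl24 and Rps27l are higher in TC1 cells. Wild-type tumour 1 is the highest tumour in each panel.

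In the tumours edgeR called 2 of 78 members lower and 0 higher, where 9.72% of all genes were called lower and 7.66% higher, 17.4% in all. At an unadjusted p under 0.05 the counts were 17 lower and 0 higher, against 18.2% and 16.5% of all genes. The median member changed by -0.56, beside 0.02 for all genes, and 77 were below 0. Scaled CPM did not overlap for 18 members, all lower, which is near the 21.6% of all genes. Without wild-type tumour 1, which held the most ribosomal protein RNA, the median member changed by -0.09. In that fit 3 members were called lower, where 1764 of all 20050 genes were lower. DESeq2 called 13, all lower, against 13.9% of all genes, and a single fit of all 18 libraries 23, all lower, against 14.7%. Without wild-type tumour 3 the count was 19, all lower, where 2421 of all 19954 genes were lower. Without wild-type 2 it was 0, where 643 of 20004 genes were lower. It was 0 as well without any of sgNAT10 tumours 1, 2 and 3. In those fits 587 of 19938, 321 of 19875 and 492 of 19829 genes were lower. At an unadjusted library size the median of all genes moved from 0.02 to 0.13 and that of the members from -0.56 to -0.42, with 2 called.

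The 2 called members of the tumours were Rps2 and Rpl8. Rps2 had 3489, 2521 and 1864 scaled CPM in wild type and 1146, 1035 and 1152 in sgNAT10. The groups did not overlap even though the wild-type tumours were widely spread, and the change was -1.24 ± 0.24 with adjusted p = 0.0173. Rpl8 had 2283, 1684 and 1318 against 996, 931 and 1003, a change of -0.85 ± 0.21 with adjusted p = 0.0364. Both calls were lost without wild-type 2 or without any of the sgNAT10 tumours, and the directions held. Rpl13, at 1898, 1391 and 1099.5 against 980.3, 887 and 972, also did not overlap but was not called (-0.63, adjusted p = 0.0822).

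Some markers of host cells moved with the tumour groups and others did not. All 6 endothelial markers were higher in sgNAT10 tumours, with sums of 84.6 to 93.3 FPKM against 45.1 to 57.0 in wild type. Of 8 skeletal muscle markers 4 were higher, with sums of 97.8 to 145 against 23.0 to 32.7. Of 5 red blood cell markers 4 were lower, with sums of 74.9 to 128 against 169.6 to 549, and of 10 immune markers 1 was lower, with sums of 455 to 554 against 659 to 742. Liver and intestine markers summed to 387 to 432 in sgNAT10 tumours and 3.12 to 179.8 in wild type. Of the 7 mesenchymal, 5 epithelial and lung, 4 keratinocyte and 2 adipocyte markers tested, 0 were called. Keratinocyte markers summed to 19.0, 1.33 and 181 FPKM in sgNAT10 tumours and 2.28, 9.77 and 6.23 in wild type. The part of any of these markers in the tumour values was not tested.

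**Figure D4:**
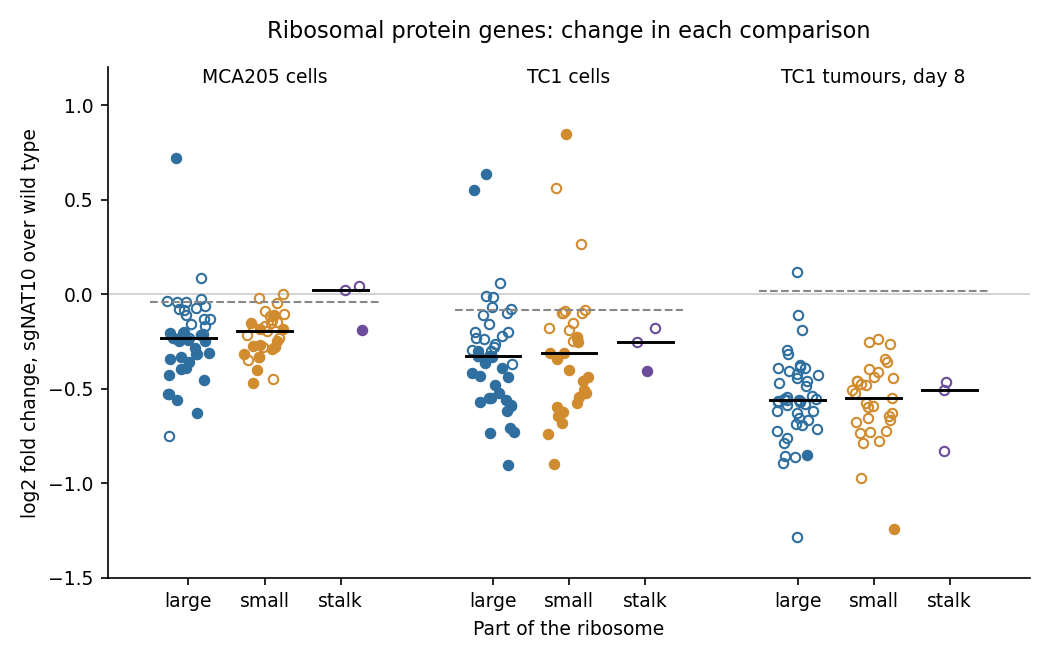
Log2 fold change of each tested member, sgNAT10 over wild type, by comparison and part of the ribosome. Filled points passed an adjusted p under 0.05, open points did not, black lines are medians of the part and dashed lines the median of all genes. Medians of the large and small subunits lie below the dashed lines in all 3 comparisons, and that of the stalk does so except in MCA205 cells. The medians over all members are -0.21, -0.31 and -0.56, and nearly all tumour points are open.

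Between the lines, 24 members were called lower in both, 60% of the 40 of MCA205 cells and 57.1% of the 42 of TC1 cells. Of all genes tested in both lines 6.91% were lower in both. Among them were Rpl7, Rpl13, Rpl15, Rps2, Rps6 and Rps27a. Of these 24, 7 kept the call in both lines when any 1 library was left out, among them Rpl7, Rpl13, Rpl26, Rpl31, Rps2 and Rps27a. Rps2 was the only member called lower in all 3 comparisons, Rpl39 the only one called higher in both lines, and Rpl24 the only one called in opposite directions. The call of Rpl24 in MCA205 cells was not among those kept when any 1 library was left out. In none of the comparisons were 18 members called, Rplp0, Rpl10, Rps9 and Rps27 among them, against 43.7% of all genes tested in at least 1. Across 77 members the changes in the lines had a Pearson r of 0.30 and a Spearman rho of 0.22, as a description over genes that are not independent replicates, and 67 were below 0 in both.

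**Figure D5:**
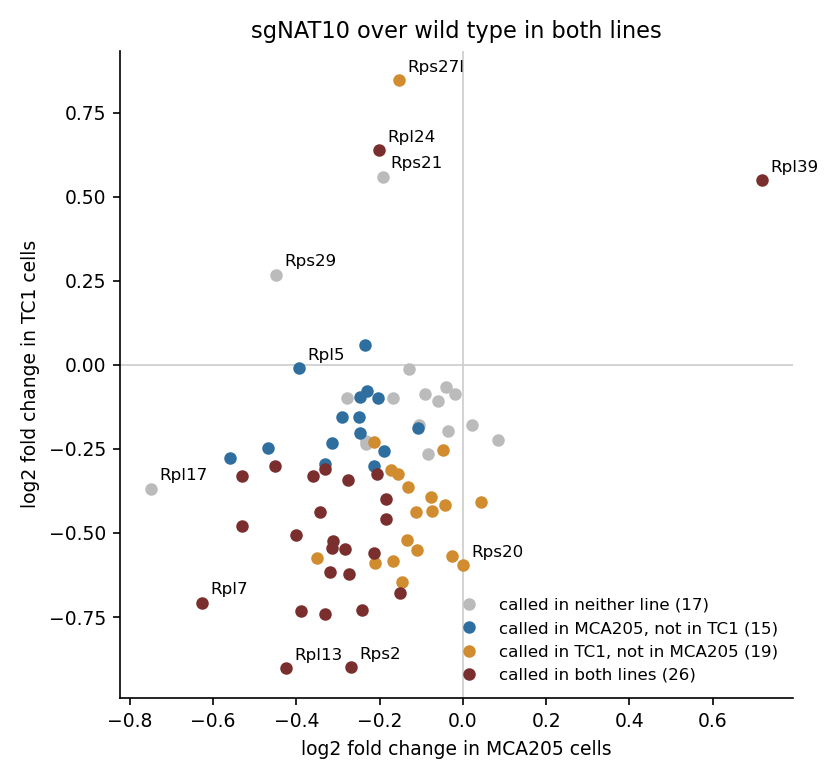
Log2 fold change of 77 members in MCA205 cells (horizontal) and TC1 cells (vertical), sgNAT10 over wild type, coloured by whether the member was called in a line. Of the points, 67 lie below 0 on both axes, Rpl39 lies above 0 on both, and Rpl24 and Rps27l lie above 0 in TC1 cells and below it in MCA205 cells.

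Whether a member's change differed between the lines was tested as an interaction over the 12 cell libraries. It was called for 16 of 77 members, where 36% of all genes were called, in either direction. In 10 the change was higher (less negative) in MCA205 cells and in 6 it was lower, against 19.2% and 16.7% of all genes. The largest were those of Rps27l (-1.04, adjusted p = 0.000178) and Rpl24 (-0.88, adjusted p = 0.000161). Rps27l had 43.1, 45.6 and 47.2 scaled CPM in wild-type MCA205 cells and 43.6, 42.2 and 36.2 in sgNAT10, which overlapped. Rpl24 had 305, 334 and 341 against 301, 284 and 267, a fall of the kind most members showed (-0.20, adjusted p = 0.0285).

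Other members differed in size. Rps20 changed by 0.00 in MCA205 cells and -0.60 in TC1 cells, a difference of 0.56 (adjusted p = 0.00621). Its scaled CPM values were 302, 344 and 352 against 370.2, 336 and 293 in MCA205 cells, and 604, 565 and 578 against 416, 359 and 380.4 in TC1 cells. Rpl5 differed the other way, by -0.42 (adjusted p = 0.00751), and Rpl26, Rps6 and Rps2 fell more in TC1 cells, with differences of 0.45, 0.49 and 0.59. Of the 16, 10 kept the call when any 1 library was left out. The count became 32 without the TC1 library sgNAT10 1 and 10 without the TC1 library sgNAT10 2. In the first of these fits 4047 of 20990 genes were called higher and 3589 lower. In the second 3510 of 20849 were higher and 2946 lower.

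The change in tumours was compared with that in TC1 cells in the same way, using the TC1 cell libraries again. It was called for 3 of 78 members, all with a lower change in tumours, Rps27l (-1.40, adjusted p = 0.0295), Rpl24 (-1.08, adjusted p = 0.0314) and Rpl7a (-0.86, adjusted p = 0.044), where 15.1% of all genes were called lower and 13.1% higher. The median member differed by -0.31, beside 0.02 for all genes, and by 0.19 without wild-type tumour 1. Rps27l had 88.6, 38.3 and 36.9 scaled CPM in wild-type tumours and 34.3, 33.4 and 49.6 in sgNAT10 tumours, which overlapped. Rpl7a had 1041, 627 and 553 against 436, 345 and 445 in tumours, and 556, 539 and 563 against 547, 524 and 513 in TC1 cells. None of the 3 kept the call when each library was left out in turn. The count became 12, of which 9 were higher, without wild-type tumour 1 and 8 without wild-type tumour 3, and it was 1 without the TC1 library sgNAT10 3. It was 0 without any of sgNAT10 tumours 1 and 2, the TC1 library sgNAT10 1 and the TC1 wild-type libraries 1 and 2. Over all genes, 2783 of 21362 were higher and 2874 lower without wild-type tumour 1. Without wild-type tumour 3, 3256 of 21334 were higher and 2830 lower. In the fits with 0 member calls 2145 to 2406 genes were higher and 2192 to 2998 lower.

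Paralogs were set beside their main forms. Rps27l and Rps27 changed order in TC1 cells when compared per length: Rps27l had 125 ± 7.96 FPKM and Rps27 209 ± 13.8 in wild type, and Rps27l 232 ± 22.8 and Rps27 203 ± 9.51 in sgNAT10. The pair did not overlap in wild type, with Rps27 above, nor in sgNAT10, with Rps27l above. Rps27 itself was not called (-0.10, adjusted p = 0.343). In TC1 cells 4 near-identical copies of Rps27 held 38.1% of the counts of the gene, while Rps27l had 0 copies. How reads matching both a gene and its copies were counted is not known, so the order of the pair is uncertain. In MCA205 cells Rps27 stayed above Rps27l in the group means, at 183 ± 51.8 against 80.5 ± 3.06 FPKM in wild type and 150.5 ± 72.6 against 72.9 ± 6.69 in sgNAT10, where the libraries overlapped. Rpl39l failed the expression filter in both lines and was not called in tumours, so the rise of Rpl39 was not matched by a measurable change of its paralog. Rps4x fell in both lines, by 0.33 and 0.31 (adjusted p = 0.000329 and 0.0136), Rpl3 fell by 0.25 in MCA205 cells (adjusted p = 0.000975), and Rpl10 was called in none.

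Rps21, a small-subunit protein, was almost missing from the TC1 cell libraries of both genotypes. It had 30, 27 and 27 counts in wild type and 37, 51 and 40 in sgNAT10, which is 0.971, 1.10 and 0.993 FPKM and 1.51, 1.81 and 1.36 FPKM. In MCA205 cells it had 385, 457 and 483 FPKM in wild type and 448, 399 and 319 in sgNAT10. The tumours that grew from TC1 cells had 1029, 348 and 346 FPKM in wild type and 323, 340.1 and 463 in sgNAT10. The flanking genes on chromosome 2, Lama5 and Cables2, were read in TC1 cells, at 27.9 to 47.2 and 10.8 to 12.6 FPKM. Of 4301 genes with over 3000 counts in MCA205 cells and in tumours, 4 lay under 2% of both in TC1 cells. The others, named after their values were seen, were H2-D1 and H2-K1, of the class I histocompatibility complex, and Vcan, a matrix proteoglycan. The 1 near-identical copy of Rps21 held 3.25% of the counts of the gene in MCA205 cells and 7.20% in tumours. It was not listed for TC1 cells, so whether reads went to it there cannot be seen. Rps21 was not called as changed in any comparison, and its interaction between the lines (-0.80, adjusted p = 0.0328) rests on these few counts.

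Transcript rows split the genes further, as far as the assignment of reads to near-identical isoforms can be trusted. In MCA205 cells 401 member transcripts were tested, of which 38 were lower and 5 higher, where 4.8% and 5.64% of all transcripts were called (10.4% in either direction). In TC1 cells 27 were lower and 7 higher, against 4.41% and 4.09% (8.49% in either direction). In tumours edgeR called 0, against 0.00223% of all transcripts lower and 0.00447% higher (0.0067% in either direction), while DESeq2 called 37, against 16.4% of all transcripts, and 44 had an unadjusted edgeR p under 0.05, against 17.7%. Of the calls in MCA205 cells, 29 of the lower ones were among 176 coding transcripts tested and 6 among 161 retained introns. Of all transcripts of these types, 6.94% and 2.05% were called lower. Both the coding and a retained-intron transcript of Rpl7 were lower in both lines. ENSMUST00000125005, the retained-intron one, changed by -0.78 in MCA205 cells (adjusted p = 0.00651) and -0.81 in TC1 cells (adjusted p = 0.0367).

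Rps24 kept its fall as a gene while its isoforms went opposite ways in the 2 lines. As a gene it changed by -0.28 in MCA205 cells (adjusted p = 0.000747) and -0.34 in TC1 cells (adjusted p = 0.00615). Its retained-intron transcript ENSMUST00000223939 had 3517, 4912 and 4016 counts in wild-type MCA205 cells and 11402, 13709 and 12206 in sgNAT10, a change of 1.46 with adjusted p = 0.00443. In TC1 cells the same transcript had 10219, 8795 and 9748 counts in wild type and 3511, 3281 and 3350 in sgNAT10, a change of -1.48 with adjusted p = 0.00182. Neither pair of groups overlapped, and the directions were opposite. The coding transcript ENSMUST00000225023 went the other way in each line, by -1.29 (adjusted p = 0.00221) and 1.01 (adjusted p = 0.00277). Whether the calls of these transcripts differ between the lines was not tested as an interaction.

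Rpl12 showed the same kind of reversal in its transcript annotated for nonsense-mediated decay, ENSMUST00000102811, which changed by 1.03 in MCA205 cells (adjusted p = 0.00687) and -1.01 in TC1 cells (adjusted p = 0.04995). The coding transcript ENSMUST00000079716 of Rpl17 had 19882, 22512 and 0 counts in wild-type TC1 cells and 0, 14419 and 16200 in sgNAT10, so libraries of a group differed in whether it was listed at all. Summed Rpl17, at 154, 363 and 441 against 261, 221 and 88.4 scaled CPM in MCA205 cells, was not called. Rpl22 depended on the scale: in TC1 cells its counts fell by 0.52 (adjusted p = 0.00133), while its summed FPKM was 138 ± 17.5 in wild type and 154 ± 51.6 in sgNAT10.

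The part of member counts in non-coding transcripts was 11.2% ± 0.759 in wild-type and 11.4% ± 0.495 in sgNAT10 MCA205 cells (exact permutation p = 0.9), and 12.8% ± 1.01 and 12.8% ± 0.765 in tumours (p = 1 by the same exact permutation test). In TC1 cells it was 10.2% ± 0.429 and 9.29% ± 0.104, without overlap, at the smallest exact permutation p of 0.1. As a share of summed FPKM it was 9.75% ± 0.528 and 9.05% ± 0.121 there, which overlapped (exact permutation p = 0.2). Retained introns made 6.08% ± 0.274 of member counts in wild-type TC1 cells and 5.24% ± 0.357 in sgNAT10. Over all genes the retained-intron share did not follow, at 3.53% ± 0.0547 and 3.52% ± 0.371 in TC1 cells. It was higher in sgNAT10 MCA205 cells, at 4.30% ± 0.0935 against 3.90% ± 0.0608. In sgNAT10 tumours it was higher as well, at 4.91% ± 0.259 against 4.01% ± 0.253, without overlap.

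Genes around the ribosome were counted from lists. Beside these counts, the shares of all genes called lower and higher were 21.2% and 20.9% in MCA205 cells, 22% and 15.9% in TC1 cells and 9.72% and 7.66% in tumours, and the medians of all genes were -0.04, -0.08 and 0.02. Of 7 ribosomal protein genes whose names fall outside the pattern, among them Rack1 and Rps3a1, 2 were lower in MCA205 cells, 4 in TC1 cells and 1 in tumours, and 0 were higher in any, with medians of -0.10, -0.25 and -0.52. Rps3a1, a small-subunit protein, fell by 0.54 in MCA205 cells (adjusted p = 6.38e-05), and Rack1, a scaffold on the small subunit, fell by 0.71 in TC1 cells (adjusted p = 0.00139). Of 15 translation factors whose messenger RNAs carry a TOP element, 9 were lower and 1 higher in MCA205 cells, 8 and 1 in TC1 cells, and 5 and 0 in tumours. Their medians were -0.14, -0.27 and -0.58. Eef2, which moves the ribosome along the message, fell by 0.70 in TC1 cells (adjusted p = 0.00196), and the initiation factor subunit Eif3h fell by 0.39 in MCA205 cells (adjusted p = 6.23e-05).

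The 78 mitochondrial ribosomal proteins, which serve a separate ribosome, included 29 lower and 6 higher in MCA205 cells, 25 and 15 in TC1 cells and 16 and 0 in tumours, with medians of -0.12, -0.12 and -0.43. Of 21 genes of mTORC1 and TOP control, 8 were lower and 6 higher in MCA205 cells, 4 and 3 in TC1 cells and 3 and 1 in tumours. Eif4ebp1, the inhibitor of cap-dependent translation that mTORC1 phosphorylates, fell by 1.81 in TC1 cells (adjusted p = 8.37e-06) and rose by 0.23 in MCA205 cells (adjusted p = 0.0483). Castor2, a relative of the arginine sensor of the pathway, rose by 0.59 in MCA205 cells (adjusted p = 0.000212) and by 0.64 in TC1 cells (adjusted p = 0.0077). Of 13 chaperones and importins of ribosomal proteins 2 were lower and 3 higher in MCA205 cells, 2 and 1 in TC1 cells and 4 and 0 in tumours. Of 12 ribosome rescue genes the counts were 5 and 3, 6 and 3, and 2 and 1. The medians were -0.10, -0.03 and -0.02 for mTORC1 and TOP control, 0.00, -0.13 and -0.37 for the chaperones and importins, and -0.04, -0.24 and -0.10 for the rescue genes. Gtpbp2, a ribosome rescue factor, fell by 1.85 in TC1 cells (adjusted p = 0.000192) and rose by 0.38 in MCA205 cells (adjusted p = 0.00255) and 0.55 in tumours (adjusted p = 0.0275).

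Ribosomal protein genes have many near-identical processed copies, and how reads that match several places were counted is not known here. By a search of coding sequences against the GENCODE M21 transcripts, 73 of the 78 had at least 1 transcript of another gene at 95% identity over 80% of the coding length, 17 had 10 or more, and Rpl21 had 57. The copies of Rpl21 held 709% of the counts of the gene itself in MCA205 cells and 706% in TC1 cells, so its low level is uncertain. Those with none included Rpl8, Rps3, Rps27l and Rpl39l. Members with no copy changed by a median of -0.13 in MCA205 cells (1 of 4 lower) and -0.28 in TC1 cells (2 lower and 1 higher of 4). Those with 1 to 9 copies changed by -0.22 (29 lower and 1 higher of 56) and -0.32 (31 lower and 2 higher of 56). Those with 10 or more changed by -0.21 (10 of 17 lower) and -0.33 (9 of 17 lower). Of all genes 21.2% were lower and 20.9% higher in MCA205 cells, and 22% and 15.9% in TC1 cells. The strand setting is not known either, so reads of overlapping genes cannot be told apart.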

How the data were processed

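RNA-seq was read in 18 libraries, 3 in each of 6 groups. Per the submitters' processing notes, the tools included FastQC, Trim Galore, Bowtie2 and featureCounts and the build was mm10; their versions, the strand setting and the treatment of reads that match several places are not given in the sources used here. The authors deposited a table for each comparison with a count and an FPKM value for every transcript and library, per the file headers. The deposited counts are whole numbers shared out among overlapping transcripts, and were treated as estimated counts and rounded. The columns headed KO were taken as the sgNAT10 libraries. Replicates were those the sample titles number.

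Transcript rows were added together by gene. The members and gene lists were chosen with earlier results of these data known. The named genes were the 6 called members with the largest rise and fall in each comparison, members called alike in all 3, up to 6 per interaction with the smallest adjusted p, variant paralogs with their main forms, the stalk, Rpl5, Rpl11, Rps6, Rpsa, Rps27a, members that failed the filter and at most 2 genes a list. Rps9, Rps24, Rpl12, Rpl17 and Rpl22 were named after their values were seen.

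Counts were tested within each table with edgeR 4.0.16 (TMM factors, filterByExpr, quasi-likelihood F test) in R 4.3.3, p-values adjusted by the Benjamini-Hochberg method over all genes, and called under 0.05. Differences of effects between tables were tested over the 12 libraries of both as interactions. Log2 changes are sgNAT10 over wild type. Shares of library counts were compared by two-sided exact permutation (scipy 1.17.1). Alternatives used DESeq2 1.42.0, limma 3.58.1 on log2(FPKM + 1) and log2(FPKM + 0.1), other scalings and filters, and libraries left out. Scripts were tested on simulated data. Near-identical copies were found with BLAST 2.17.0. Promoter windows are from RefSeq, 250 bases before to 50 after each start, and motifs other than TATAAA and the pyrimidine run were sought on both strands. Same-numbered libraries were not found to deviate together, so the numbers were not used as pairs. Some differently numbered MCA205 libraries did deviate together across genotypes. The correlation was 0.67 for sgNAT10 2 with wild-type 1, and 0.43 and 0.44 for sgNAT10 1 and 3 with wild-type 2. The cause was not tested. Results for some genes are not reported here.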

Additional observations from a re-analysis of the deposited data

Results flagged for a closer look

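For the members named here the change in sgNAT10 libraries differed between settings by an interaction test (edgeR, adjusted p under 0.05 over all genes). Between MCA205 and TC1 cells, the change was lower in MCA205 cells for Rps27l, by -1.04 (adjusted p = 0.000178), Rpl24, by -0.88 (0.000161), Rps21, by -0.80 (0.0328), Rps29, by -0.75 (0.0148), Rpl5, by -0.42 (0.00751), and Rpl9, by -0.33 (0.0475). The value of Rps21 rests on 27 to 51 counts a library in TC1 cells.

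The change was higher in MCA205 cells for Rps2, by 0.59 (adjusted p = 0.0222), Rps20, by 0.56 (0.00621), Rps6, by 0.49 (0.00897), Rpl26, by 0.45 (0.00495), Rpl13, by 0.44 (0.0153), Rpl23, by 0.38 (0.0112), Rps18, by 0.37 (0.0442), Rps26, by 0.35 (0.0355), and Rpl19, by 0.34 (0.0159). Of these, Rps20 and Rpl19 had changes of 0.00 and -0.04 in MCA205 cells and -0.60 and -0.42 in TC1 cells. The others named were below 0 in both lines and lower in TC1 cells.

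Between tumours and TC1 cells the change was lower in tumours for Rps27l, by -1.40 (adjusted p = 0.0295), Rpl24, by -1.08 (0.0314), and Rpl7a, by -0.86 (0.044). Both interactions use the same TC1 cell libraries. In tumours Rps27l and Rpl24 changed by -0.48 and -0.37, neither called.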

How the results depend on the processing

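No called member changed sign when any 1 library was left out, but the median difference between tumours and TC1 cells did, from -0.31 to 0.19 without wild-type tumour 1. Of the genes called, 41 in MCA205 cells became 3 with all 18 libraries in 1 fit, 45 in TC1 cells became 13 with all 18 and 29 without sgNAT10 2 and 3 together (chosen after seeing the data), and 2 in tumours became 23 with all 18, 13 by DESeq2 and 1 with no filter. The 16 differences between the lines became 27 by library size alone, 26 with a minimum of 1 CPM, 29 by DESeq2 and 3 with all 18. Fitting the replicate number as a block, although same-numbered libraries had correlations of -0.56 to 0.27 in MCA205 cells, -0.07 to 0.01 in TC1 cells and -0.07 to 0.01 in tumours, and 0, 1 and 1 of 6 libraries correlated best with their own number, gave 28, 39 and 0 calls in the comparisons, 6 between the lines and 1 between tumours and TC1 cells. Of the transcripts called, 43 in MCA205 cells became 28 with no filter, 117 by DESeq2 and 3 with the replicate block. In TC1 cells 34 became 20, 79 and 0, and in tumours DESeq2 called 37. The cause of these shifts was not tested. Leaving out 1 library at a time gave 23 to 42 calls in MCA205 cells, 23 to 62 in TC1 cells, 0 to 19 in tumours, 10 to 32 between the lines and 0 to 12 between tumours and TC1 cells. For transcripts it gave 20 to 30, 7 to 61 and 0 to 0. Calls over all genes moved with the libraries as well: in tumours 1871 genes were lower in the main fit and 321 without sgNAT10 2. The change of the library share ran from -14.2% to -10.5% in MCA205 cells, -24.0% to -16.8% in TC1 cells and -33.0% to -8.47% in tumours. That of the non-coding share ran from -1.53% to 5.35%, -11.3% to -7.93% and -4.12% to 3.13%, so its sign was not stable in MCA205 cells or tumours. Counted as retained introns only, it was -13.8% in TC1 cells and 10.7% in tumours. With 3 libraries a group, exact tests could not reach 0.05, and for 73 of 78 members reads may be split with near-identical copies.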
